A study of Mus musculus with 40 samples.

Results

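The comparison described here set 5 kidneys of EGFR-KO mice against 5 kidneys of WT mice, all kept on a standard diet (SD). They are 10 of the 20 kidney libraries and of the 40 libraries of the whole series, chosen by their labels alone (organ, genotype and diet) and not by any measured value. Each library was made from the poly(A) RNA of the tissue of 1 kidney. The paper froze parts of the organs and fixed other parts, and does not say which part of a kidney was sequenced. EGFR-KO mice (KO below) carried loxP sites on both Egfr alleles and the Tek-cre transgene, in which the Tie2 promoter drives Cre. WT mice carried the same Tek-cre transgene without loxP sites, so that Cre was shared by both genotypes. SD supplied 10% of its energy as fat, was given for 18 weeks from 6 weeks of age, and was set in the study against a high fat diet (HFD) with 60%. The sex of the mice and the hour of collection were not given in the sources used here, and no mouse number linked a kidney to another sample. P-values therefore take each kidney as a separate sample, as labelled. Unless another set is named, their spread was estimated in 1 fit over all 20 kidney libraries, those under HFD included. The comparison addresses whether removal of EGFR by Tek-cre, aimed at endothelial cells, alters the renal transcriptome of mice that are not obese.

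EGFR (ErbB1) is a receptor tyrosine kinase that binds EGF, TGF-alpha, HB-EGF and related ligands, pairs with itself or with ErbB2 to ErbB4, and signals through adaptors such as Grb2, Shc1, Sos1 and Gab1 to the MAP kinases. The nephron is rich in the receptor and in its ligand Egf, which distal tubule cells make in large amount. The endothelium is a minority of kidney cells and lines arteries, glomerular capillaries, peritubular capillaries and vasa recta. The Tie2 promoter is also active in blood cell precursors, so that Tek-cre can remove a floxed gene from leukocytes as well. In bulk tissue, fewer cells of a type and less RNA per cell cannot be told apart.

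The floxed fragment holds Egfr exon 1, whose coding bases are shown because their loss defines the knockout. In GENCODE M21 (GRCm38) the gene lies on the plus strand at chr11:16752203-16918158, and exon 1 at chr11:16752203-16752570. The coding part of exon 1 (chr11:16752483-16752570, 88 bases, the start codon in capitals) reads as follows.
Egfr exon 1 coding part: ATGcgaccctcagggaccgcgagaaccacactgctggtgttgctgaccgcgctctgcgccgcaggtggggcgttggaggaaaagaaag
Exon 1 takes up 368 of the 11326 exonic bases of the gene (3.25%). The deposited table counts fragments over the whole gene, so that an Egfr count cannot show the loss of exon 1 itself, and it sums over every renal cell type that transcribes the gene.

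The summed Egfr level was alike in both groups. Levels are given as counts per 1e+06 counts of the normalised library (FPM). The KO kidneys a6, a7, a8, a9 and a10 held 49.1, 55.3, 55.6, 47.8 and 57.6 FPM of Egfr. The WT kidneys a16, a17, a18, a19 and a20 held 54.2, 64.5, 49.3, 54.3 and 59.5 FPM. The groups overlapped over most of their range, and the 2 lowest values were those of a9 (KO) and a6 (KO), with a18 (WT) next to them. The mean was 53.1 ± 4.33 FPM in KO and 56.3 ± 5.81 FPM in WT (SD, n = 5 each). The fitted log2 fold change of KO over WT was -0.09 (SE 0.17), with a 95% interval from -0.45 to 0.27 and an unadjusted p of 0.623. A two-sided exact permutation test over the 10 kidneys gave p = 0.357, where the smallest p this design can give is 0.00794. In percent, the interval runs from -26.7% to 20.98%, so that it includes the loss of Egfr transcripts from a cell type with a small share of the renal Egfr pool. The change that Egfr needed for a call is given below and was larger than either bound. With the spread taken from the 10 SD kidneys alone the estimate was -0.09 with an SE of 0.08.

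**Figure D1:**
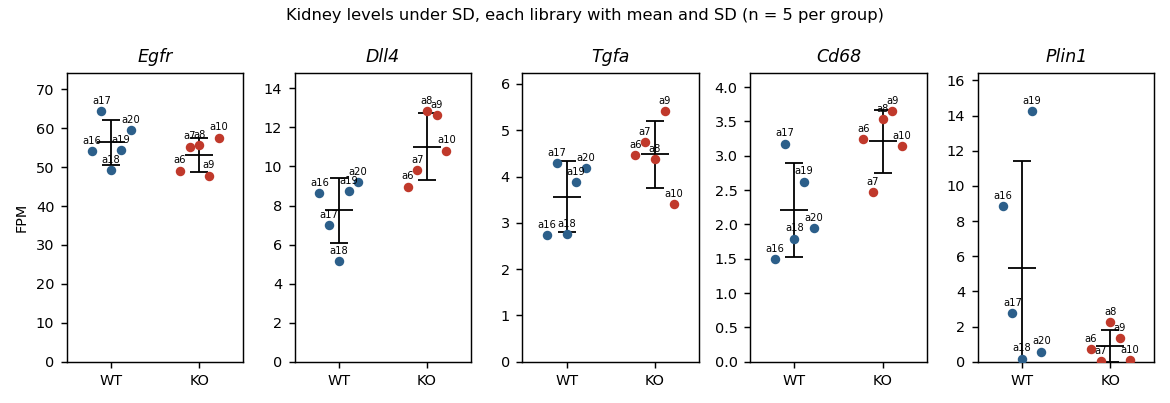
Level in FPM (vertical axes, linear from 0) of Egfr, Dll4, Tgfa, Cd68 and Plin1 in each SD kidney, WT in blue and KO in red, with mean and SD of 5 kidneys; labels name the libraries. The Egfr points of both groups overlap, while the Dll4 mean is 11.02 in KO and 7.75 in WT, with only KO a6 inside the WT range.

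Some kidneys stood apart from the rest of their group, and their values accompany each result they touch. WT kidney a18 held 275 FPM summed over the general endothelial genes, against 402 to 757 FPM in the other 4 WT kidneys and 496 to 679 FPM in KO. The same kidney was lowest of all 10 for the podocyte genes (173 FPM, others 308 to 474) and the stromal genes (138 FPM). It was highest for the summed proximal tubule genes (69258 FPM, others 43000 to 55113), a sum in which the most abundant genes weigh most. A score was also taken as the mean log2 level of these genes relative to all kidney libraries. On that score a18 (0.038) lay below WT a20 (0.058) and WT a16 (0.050). WT kidney a16 was the second lowest for general endothelial genes. Kidneys a8 and a9 (KO) and a17 (WT) held 2532, 2268 and 2194 FPM of immediate-early genes, the first genes that cells switch on after a stimulus, while the other 7 kidneys held 124 to 168 FPM. Total counts per library ran from 19811155 to 24311482 in KO and from 23532144 to 31369285 in WT, and no pair of the 10 SD kidneys looked like the same library (lowest median chi-square over genes 1.62, where sampling noise alone gives 0.455). Among the other 10 kidneys, which help to set the spread in the fit, a1 (KO, HFD) and a12 (WT, HFD) differed by less than sampling noise (0.0269), although their labels name different genotypes. Each result therefore counts 2 kidneys there that may be 1 library. Without both, 0 genes were called, 431 had an unadjusted p under 0.05 and 10508 were stable.

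**Figure D2:**
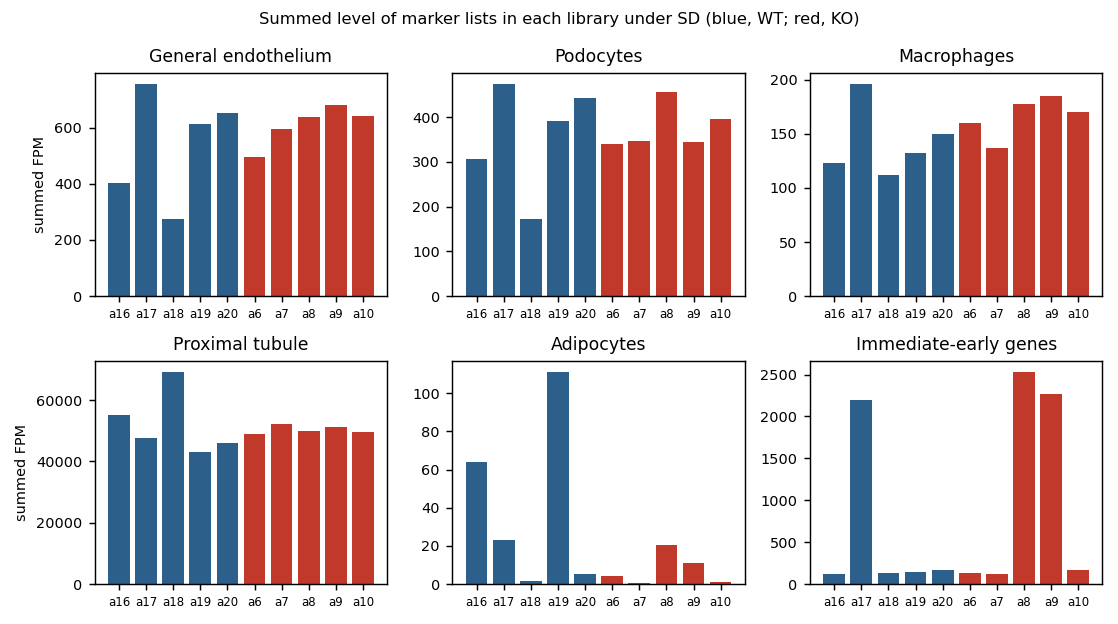
Summed FPM (vertical axes, linear from 0) of 6 marker lists in each SD kidney, WT in blue and KO in red. The most abundant genes weigh most in each sum. WT a18 has the shortest endothelial and podocyte bars and the tallest proximal tubule bar; adipocyte genes are tallest in WT a19 and a16; immediate-early genes are high in a17, a8 and a9 only.

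Across the transcriptome no gene met the test. Of 15943 genes tested, 0 were called at an adjusted p under 0.05 by edgeR's quasi-likelihood test, and the adjusted p of all genes lay between 0.9998 and 1. DESeq2's Wald test and edgeR's likelihood ratio and exact tests also called 0 genes, with 477, 332 and 302 genes at an unadjusted p under 0.05. At an unadjusted p under 0.05 there were 426 genes (2.67%), 209 higher (1.31%) and 217 lower (1.36%) in KO, where a uniform spread of p-values would give 797.2. In 74 genes (0.464%) the 5 KO values did not overlap the 5 WT values. A gene is called stable below when the whole 95% interval of its fold change lies within 1.5-fold either way, the size the study's methods asked of a regulated gene. By that measure 10245 genes (64.3%) were stable, and 13568 (85.1%) held within 2-fold. The share of stable genes rose with level, from 1.62% under 1 FPM and 33.1% from 1 to 5 FPM. It was 85.8% from 5 to 50 FPM and 94.4% from 50 FPM up. Lists are set below against all genes, not against genes of like level. Stable therefore describes the width and place of an interval, and a gene that is not stable was not shown to differ. None of the members of any list was without overlap between the groups.

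Within the EGFR system, all 4 receptors and all 4 adaptors tested were stable. Erbb2, the partner without a ligand of its own, had a mean of 64.8 ± 5.54 FPM in KO and 59.8 ± 5.85 FPM in WT, with an interval of -0.03 to 0.26. Erbb3, the partner with a weak kinase, stood at 107 and 115 FPM (interval -0.28 to 0.06), and Erbb4, a neuregulin receptor, at 15.1 and 14.8 FPM (-0.36 to 0.41). For the adaptor Grb2 the interval of -0.10 to 0.14 kept any difference within 1.105-fold, one of the narrowest bounds of all members. Shc1 and Gab1 were bounded at 1.19-fold and 1.24-fold. The exchange factor Sos1 had the lowest estimate of the group, -0.21 (interval -0.43 to 0.01, unadjusted p = 0.0595), with 32.4 ± 2.12 FPM in KO and 37.5 ± 4.66 FPM in WT. The adaptor and ubiquitin ligase gene Cbl could not be measured, since it belongs to the genes for which the table holds only 0.

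Of the ligands, Egf itself was stable and Tgfa was the 1 gene of the EGFR system with an unadjusted p under 0.05 (1 of 22 tested, against 2.67% of all genes, or 1.31% counting those higher in KO). Egf had 1229 ± 161 FPM in KO and 1207 ± 225 FPM in WT, and its interval of -0.28 to 0.33 corresponds to at most 1.26-fold. Tgfa, the gene of the ligand TGF-alpha (chr6:86195223-86275719), held 4.46, 4.75, 4.38, 5.42 and 3.41 FPM in KO a6 to a10. In WT a16 to a20 it held 2.73, 4.29, 2.75, 3.88 and 4.18 FPM. The groups overlapped, a10 (KO) lying below 3 of the 5 WT kidneys. The log2 fold change was 0.33 (SE 0.16, unadjusted p = 0.0478), and the p stayed under 0.05 in 4 of the 10 fits that left out 1 kidney. It was 0.0653, 0.0845, 0.0603 and 0.136 without KO a6, a7, a8 and a9, 0.136 without WT a16, 0.108 without WT a18, 0.0524 without the HFD kidneys a1 and a12, and 0.0959 with the 10 SD kidneys alone. Hbegf (the gene of HB-EGF) had a wide interval, -1.14 to 1.94, because it was high in the 3 kidneys rich in immediate-early genes: 70.3 and 201 FPM in a8 and a9 and 179 FPM in a17, against 14.01 to 20.3 FPM elsewhere. Betacellulin (Btc, 4.01 against 4.44 FPM) and neuregulin 1 (Nrg1, 12.2 against 11.5 FPM) gave log2 fold changes of -0.15 and 0.09. Areg, Ereg and Epgn had too few counts to be tested, and Nrg4 was among the genes at 0.

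The feedback genes of the pathway were not bounded as tightly. Errfi1, whose product Mig6 inhibits the EGFR kinase, averaged 718 ± 371 FPM in KO and 697 ± 399 FPM in WT, a log2 fold change of 0.04 with an interval of -0.63 to 0.71. It reached 1207 and 1010 FPM in a8 and a9 and 1398 FPM in a17, and lay between 336 and 618 FPM in the other 7 kidneys. Lrig1, a membrane protein that lowers ErbB receptor levels, was the 1 stable gene of the 9, at -0.20 (interval -0.49 to 0.08). The Sprouty genes Spry1, Spry2 and Spry4, inhibitors of receptor tyrosine kinase signalling, gave 0.35, 0.33 and 0.30. The MAP kinase phosphatases Dusp4, Dusp5 and Dusp6 gave -0.05, 1.04 and 0.35, and Phlda1 gave 0.47. With a8, a9 and a17 left out, 7 of these 9 genes were stable (against 56.9% of all genes in that fit) and their median log2 fold change went from 0.33 to 0.09. Without WT a17 alone the median was 0.77 and 6 of the 9, all higher in KO, had an unadjusted p under 0.05 (against 3.86% of all genes), whereas 0 of the 9 did with all kidneys or without a8, a9 and a17.

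Endothelial genes were neither called nor tightly bounded. Of the 54 genes on the endothelial lists 46 were tested, 7 lay among the genes at 0 (among them Cdh5, Esam and Robo4) and 1, Selp, had too few counts. Of the 46, 0 were called, 1 had an unadjusted p under 0.05 (2.17%, against 2.67% of all genes) and 20 were stable (43.5%, against 64.3%). The intervals of 43 of the 46 lay within 2-fold (85.1% of all genes). The estimates were higher in KO for 39 genes and lower for 7, with a median log2 fold change of 0.17 against -0.01 over all genes. This tilt moved with WT kidney a18. Without it 24 genes were higher and 22 lower, the median was 0.02, and 34 of the 46 genes were stable (73.9%, against 62.1% of all genes in that fit). Leaving out WT a17, the WT kidney with the highest endothelial sum, moved them the other way: 44 were higher and 2 lower, the median was 0.28, and 9 had an unadjusted p under 0.05, all higher in KO (against 3.86% of all genes), with 12 stable. In that fit too 0 genes were called, the lowest adjusted p being 0.71.

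**Figure D3:**
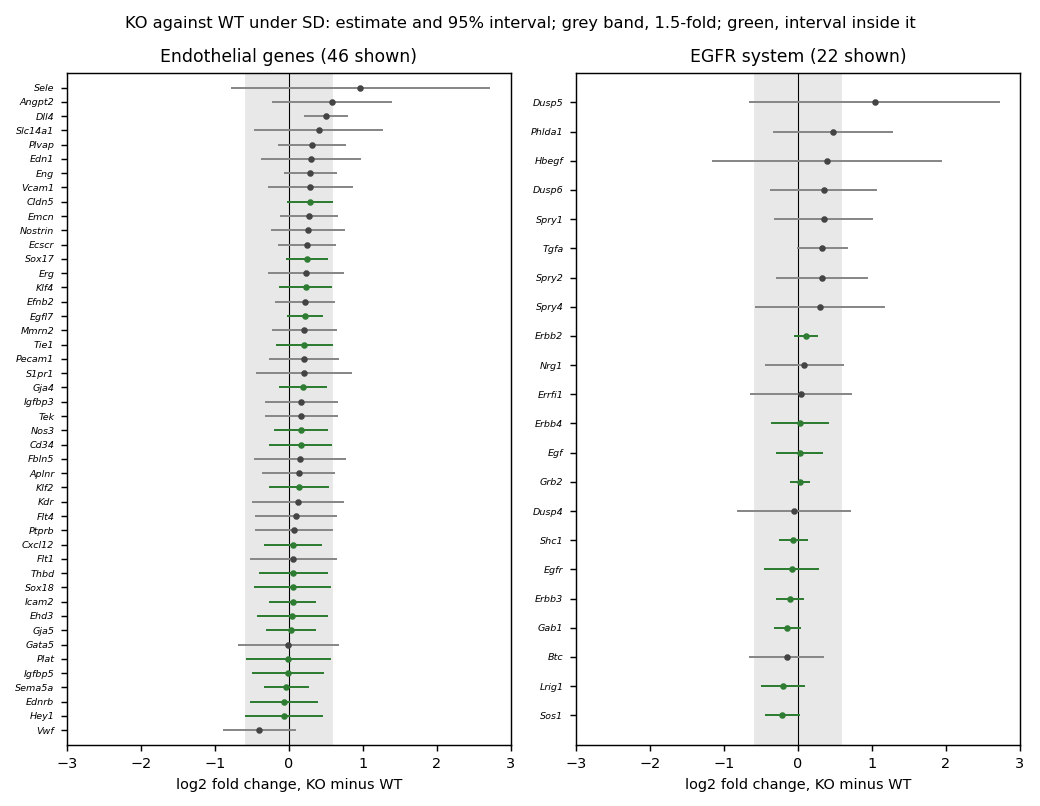
Log2 fold change of KO over WT (horizontal axis) with its 95% interval for each tested endothelial gene (left) and EGFR system gene (right); the grey band marks 1.5-fold either way and green marks intervals inside it. There are 20 green intervals of 46 on the left and 10 of 22 on the right, and the interval of Dll4 lies to the right of 0.

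The general endothelial genes show where the uncertainty lay. Pecam1 (CD31, the standard adhesion marker of endothelium) averaged 56.3 ± 10.1 FPM in KO and 48.9 ± 21.1 FPM in WT, where a18 held 22.2 FPM and a17 73.1 FPM. The vascular endothelial growth factor receptor Kdr stood at 67.0 ± 12.6 and 61.7 ± 32.6 FPM, with 18.2 FPM in a18 and 93.9 FPM in a17. In both genes the SD of WT exceeded that of KO, and WT covered the whole range of KO. Log2 fold changes were 0.12 for Kdr, 0.06 for its relative Flt1 and 0.10 for the lymphatic receptor Flt4. The angiopoietin receptor gene Tek, whose promoter drives the Cre transgene, gave 0.16 (34.0 ± 4.77 against 30.3 ± 13.4 FPM), and its relative Tie1 gave 0.21.

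Eng, a TGF-beta coreceptor with the highest level per length of the general list, gave 0.29, and Egfl7, a secreted matrix factor and the second highest, gave 0.22. Egfl7 was the most precisely measured gene of the list, with 52.0 ± 4.31 FPM in KO, 44.8 ± 4.23 FPM in WT and an interval of -0.01 to 0.45 (unadjusted p = 0.0648). It did not fall in a18, which held 49.1 FPM, the highest WT value. The tight junction gene Cldn5 gave 0.29 (interval -0.01 to 0.58) and was likewise not low in a18, at 9.79 FPM. The sialomucins Emcn and Cd34 gave 0.27 and 0.16, the transcription factors Erg and Sox18 gave 0.23 and 0.05, and the phosphatase Ptprb gave 0.07. Mmrn2 and Ecscr gave 0.21 and 0.25, and the adhesion molecule Icam2 and thrombomodulin (Thbd) gave 0.05 and 0.06. Von Willebrand factor (Vwf), stored by the endothelium of larger vessels, was the 1 general gene with a negative estimate, -0.40 (2.09 ± 0.291 against 2.77 ± 0.784 FPM, interval -0.88 to 0.08). Of these 19 genes 7 were stable, and 17 were without a18.

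By vascular bed, the arterial list held the 1 gene with an unadjusted p under 0.05. The median log2 fold change of the 5 glomerular endothelial genes was -0.01, and it was -0.15 without a18, 0.13 without a19 and 0.08 without a17. Sema5a, a semaphorin, had the narrowest interval there (-0.33 to 0.26), and Gata5 the widest (-0.67 to 0.66). Ehd3, an endocytic protein of these capillaries, was stable at 25.1 ± 4.41 and 24.4 ± 10.1 FPM. Tissue plasminogen activator (Plat), highest per length of the list, stood at 36.1 ± 7.14 and 36.3 ± 16.3 FPM. Among arterial genes the transcription factor Sox17 gave 0.24 (interval -0.03 to 0.51), the chemokine Cxcl12 gave 0.06 (113 ± 23.2 against 108 ± 15.7 FPM) and the elastic fibre gene Fbln5 0.14 (115 ± 19.2 against 104 ± 55.8 FPM). Gap junction proteins of arteries, Gja5 and Gja4, were stable at 0.03 and 0.19. In capillaries and vasa recta, Plvap, which forms the diaphragms of fenestrated endothelium, gave 0.32 (interval -0.13 to 0.76), and the growth factor binding proteins Igfbp3 and Igfbp5 gave 0.17 and -0.01. The urea transporter gene Slc14a1 had the widest interval of that list, -0.45 to 1.26. Of the signalling genes, endothelial nitric oxide synthase (Nos3) was stable at 5.60 ± 0.768 and 5.01 ± 1.39 FPM (0.16, interval -0.19 to 0.52). The flow-responsive factors Klf2 and Klf4 were stable at 0.13 and 0.22, with Klf4 the narrowest of the list, and the endothelin receptor Ednrb at -0.07. E-selectin (Sele), near the limit of detection, had the widest interval, -0.78 to 2.70.

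Dll4, the Notch ligand of arterial and tip endothelial cells, was the endothelial gene with the smallest p. Its level was 8.97, 9.82, 12.8, 12.6 and 10.8 FPM in KO a6 to a10. It was 8.65, 7.0, 5.16, 8.75 and 9.18 FPM in WT a16 to a20. Of the 5 KO kidneys, 4 lay above every WT kidney, and a6 lay below a20, so that the groups overlapped at their edge. The means were 11.02 ± 1.71 and 7.75 ± 1.67 FPM, a log2 fold change of 0.51 (SE 0.14, interval 0.22 to 0.79, unadjusted p = 0.00139), which missed the threshold once adjusted over all genes. The a8 and a9 kidneys, rich in immediate-early genes, held the highest Dll4 values, whereas WT a17, rich in them too, held 7.0 FPM, below every kidney but a18. With a8, a9 and a17 left out the log2 fold change was 0.32 and the unadjusted p 0.0556, and over leaving out each kidney in turn it ran from 0.40 (without a18) to 0.58. Set against the general endothelial genes of the same kidney, Dll4 made up 1.65% to 2.01% of their summed FPM in KO and 0.925% to 2.15% in WT, with means of 1.80% ± 0.144 and 1.56% ± 0.472. On that scale the KO values lay inside the WT range. With the mean log2 level of the general endothelial genes as a covariate, a fit added after seeing the data, the log2 fold change was 0.41 (unadjusted p = 0.00378, adjusted p = 0.839).

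Tubular genes were the best bounded of the 3 compartments. Of 68 listed genes 64 were tested, 0 were called, 0 had an unadjusted p under 0.05 (against 2.67% of all genes), and 52 were stable (81.2%, against 64.3%). Estimates were higher for 37 and lower for 27 genes, with a median log2 fold change of 0.04. In the proximal tubule, which reclaims most of the filtrate, 17 of 18 genes were stable. The phosphate transporter Slc34a1 had 5462 ± 584 FPM in KO and 5651 ± 401 FPM in WT, and its interval of -0.23 to 0.13 kept any difference within 1.17-fold. The androgen-regulated gene Kap, highest per length of the list, had 26638 ± 2822 and 27453 ± 8912 FPM, with 42372 FPM in WT a18. The fatty acid transporter Slc27a2 stood at -0.01. The endocytic receptors Lrp2 (megalin) and Cubn (cubilin) were bounded at 1.28-fold and 1.149-fold, and the glucose cotransporters Slc5a2 and Slc5a1 at 1.39-fold and 1.19-fold, the latter with the narrowest interval of the list. The lactate transporter Slc5a12 was the 1 exception, with a log2 fold change of -0.32 and an interval of -1.15 to 0.51.

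Distal segments were bounded similarly. Umod (uromodulin) and Slc12a1 (the furosemide-sensitive cotransporter) of the thick ascending limb gave 0.18 and 0.15, and 4 of its 6 genes were stable, Cldn10 most narrowly (interval -0.13 to 0.35) and Ptger3 least (-0.26 to 0.68). All 6 genes of the distal convoluted tubule were stable, with Slc12a3 (the thiazide-sensitive cotransporter) at 944 ± 131 and 966 ± 138 FPM and the calcium-binding protein gene Calb1 at 258 ± 33.0 and 261 ± 59.8 FPM. The kinase Wnk4 there had the lowest p of its list (0.19, interval -0.01 to 0.39, unadjusted p = 0.0578) and the narrowest interval, and parvalbumin (Pvalb) the widest (-0.57 to 0.54). All 11 tested genes of the connecting tubule and principal cells were stable, among them the water channels Aqp2 (173 ± 43.7 against 170 ± 42.4 FPM) and Aqp3 (96.3 ± 5.90 against 96.7 ± 16.8 FPM) and kallikrein (Klk1, 0.07). The sodium channel subunit gene Scnn1g had the narrowest interval of the list (-0.25 to 0.14) and the calcium channel gene Trpv5 the widest (-0.54 to 0.39). Of 10 intercalated cell genes 9 were stable, with Car2 (carbonic anhydrase) at -0.03, the ammonia transporter Rhcg at 0.09 and the exception Foxi1 at 0.17 (interval -0.31 to 0.65). Atp6v1b1, a proton pump subunit, had the narrowest interval, -0.12 to 0.30.

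Genes that mark injured tubules had wider intervals than those of the tubule segments, 5 of 13 being stable. Havcr1 (KIM-1) held 1.82 ± 0.508 FPM in KO and 2.04 ± 1.46 FPM in WT, with an interval of -1.33 to 1.00. Lcn2 (NGAL) held 1.98 ± 0.962 and 1.41 ± 0.573 FPM, with an interval of -0.36 to 1.36. Krt20 held 0.116 ± 0.108 and 0.266 ± 0.292 FPM, and its interval of -2.64 to 0.39 was the widest of the list. The stable ones were Spp1 (osteopontin), Krt8, Clu, Vim and Cd44, with log2 fold changes of 0.10, 0.16, 0.05, 0.08 and 0.07, and Timp1 was among the genes at 0.

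**Figure D4:**
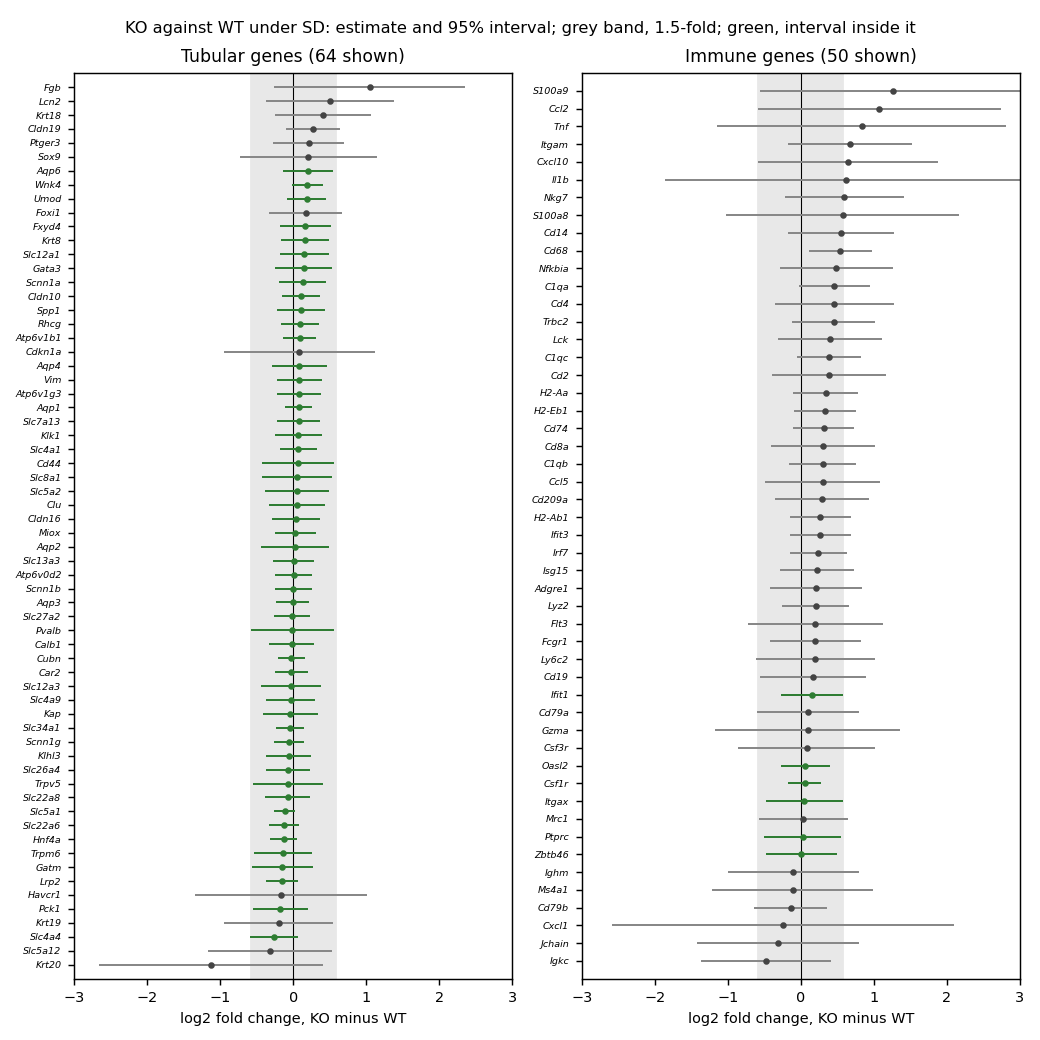
Log2 fold change of KO over WT (horizontal axis, shown from -3 to 3) with its 95% interval for the tested tubular genes (left) and all but 1 of the tested immune genes (right); the grey band marks 1.5-fold either way and green marks intervals inside it. Of the tubular intervals 52 of 64 are green and of the immune intervals drawn 6 of 50.

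Immune genes were the least bounded. Of 62 listed genes 51 were tested, 0 were called, 1 had an unadjusted p under 0.05 (1.96%, against 2.67% of all genes), and 7 were stable (13.7%, against 64.3%). Estimates were higher in KO for 45 genes and lower for 6, with a median log2 fold change of 0.27. Without WT a18 they were higher for 35 and lower for 16 and the median was 0.18. Without a8, a9 and a17 the median was 0.29, and 6 of 50 tested genes, all higher in KO, had an unadjusted p under 0.05 (against 1.53% of all genes). Without WT a17 alone the median was 0.45, and 18 of 51 genes did, all higher in KO (against 3.86% of all genes), with 0 called. Summed over the macrophage and monocyte genes, KO kidneys held 137 to 185 FPM and WT kidneys 112 to 196 FPM, and those ranges overlap.

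The macrophage genes show both ends of the precision. Csf1r, the receptor that macrophages need to survive and the list's most precise gene, was bounded at 1.20-fold (63.6 ± 5.27 against 61.2 ± 8.82 FPM, interval -0.16 to 0.27). Cd68, a lysosomal protein of macrophages (chr11:69664213-69666153), was the 1 immune gene with an unadjusted p under 0.05. It held 3.24, 2.48, 3.54, 3.65 and 3.14 FPM in KO a6 to a10, and 1.498, 3.18, 1.79, 2.62 and 1.94 FPM in WT a16 to a20. WT a17, with its high immediate-early genes, lay among the KO kidneys, and KO a7 lay below 2 WT kidneys. The means were 3.21 ± 0.461 and 2.21 ± 0.682 FPM, a log2 fold change of 0.54 (SE 0.20, interval 0.12 to 0.96, unadjusted p = 0.0137), which did not pass once adjusted. It was 0.59 without a8, a9 and a17 and ran from 0.43 to 0.71 when each kidney was left out in turn. The complement genes C1qa, C1qb and C1qc, made by the same cells, gave 0.46, 0.30 and 0.39, with unadjusted p of 0.0556, 0.174 and 0.0687. Lyz2 (lysozyme), highest per length of the list, gave 0.20, and Itgam (CD11b) had the widest interval, -0.17 to 1.51. Cx3cr1 and Ccr2 could not be measured.

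The antigen presentation genes Cd74 (247 ± 51.1 against 199 ± 59.1 FPM) and H2-Ab1 (144 ± 32.05 against 120 ± 34.2 FPM) gave 0.31 and 0.27, neither stable, and Flt3 of the same list had an interval of -0.71 to 1.11. The median of the 8 tested T and NK cell genes was 0.39, and only the pan-leukocyte gene Ptprc (CD45) was stable, at 12.4 ± 2.40 and 12.2 ± 5.13 FPM. The other 7 genes of that list lay at 2.20 FPM (Lck in KO) or less in both groups, among them Trbc2, a T cell receptor chain (0.45), and Nkg7 of cytotoxic cells (0.59), and Gzma had the widest interval (-1.16 to 1.35). The T cell receptor genes Cd3d, Cd3e and Cd3g were among the genes at 0. Immunoglobulin genes had negative estimates, Igkc -0.47 (90.4 ± 41.9 against 125.5 ± 63.0 FPM) and Jchain -0.32 (34.2 ± 22.1 against 42.7 ± 28.4 FPM), with intervals of -1.35 to 0.41 and -1.41 to 0.78. Cd79b had the narrowest interval of the B cell list, -0.62 to 0.34. Of the interferon genes 3 of 6 were stable, while Ifit3 and Isg15 gave 0.27 and 0.22 and were not. Chemokine and cytokine genes could have differed severalfold without being seen: the interval of Il1b ran from -1.84 to 3.07 and that of S100a9, a neutrophil gene, from -0.54 to 3.07. S100a8 and Csf3r of the neutrophil list gave 0.57 and 0.08, and the inhibitor Nfkbia and the chemokine Cxcl1 gave 0.49 and -0.24. Il1b held 66.8 FPM in KO a9 and 49.6 FPM in WT a17, 11.8 FPM in a8 and 0.632 to 1.28 FPM in the other 7 kidneys.

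The size of effect that could have been seen was computed from each gene's standard error. A median gene would have reached an unadjusted p under 0.05 in 80% of repeats at a 1.37-fold difference. To be called alone among 15943 genes, where the unadjusted p must be 3.14e-06 or less, it needed 2.22-fold. Below 1 FPM the median needed for a single call was 8.02-fold (2530 genes), from 1 to 5 FPM 3.53-fold (3078 genes), from 5 to 50 FPM 1.90-fold (6613 genes), and from 50 FPM up 1.65-fold (3722 genes). By compartment it was 2.19-fold for tubular, 3.23-fold for endothelial and 5.55-fold for immune genes, and 3.01-fold for the EGFR system. Egfr itself needed 2.46-fold, Pecam1 3.20-fold and Csf1r 1.70-fold. A difference restricted to endothelial cells is further diluted for any gene that other renal cells transcribe, and the data do not give the endothelial share of such a gene.

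**Figure D5:**
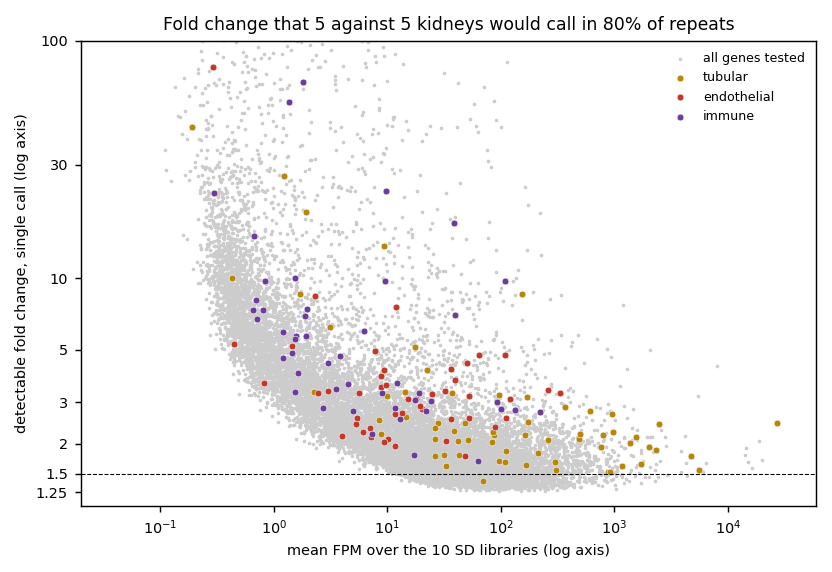
Fold change that would be called as a single gene in 80% of repeats (vertical axis, log scale, cut at 100) against the mean level over the 10 SD kidneys (horizontal axis, FPM, log scale), for all genes tested in grey and the members in colour; the dashed line marks 1.5-fold. The median of all genes is 8.02-fold under 1 FPM and 1.65-fold from 50 FPM up, and immune genes lie mostly at the low, uncertain end.

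The same fit called many genes for diet, with 5 kidneys a group as labelled. Between HFD and SD in WT kidneys, which share the WT SD kidneys with the genotype comparison, 1069 of 15943 genes were called (6.71%), with a median change of 1.52-fold and a smallest called change of 1.13-fold. The HFD group includes a12, and without a1 and a12 there were 1091 calls. Of the members tested, 12 of 64 tubular genes, 4 of 51 immune genes and 1 of 46 endothelial genes (Dll4) were among them. So were 1 of 10 podocyte genes, 3 of 4 male-biased and 3 of 3 female-biased renal genes. Cd68, for one, was 0.92 log2 units higher under HFD (adjusted p = 0.00650), and Dll4 0.48 units (adjusted p = 0.0355). Egfr was 0.48 log2 units lower, without a call (adjusted p = 0.118).

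Markers of tissue outside the nephron varied from kidney to kidney. All 6 adipocyte genes were lower in KO, with a median log2 fold change of -2.21, and 3 of them, Plin1, Cfd and Ucp1, had an unadjusted p under 0.05 (0.0299, 0.0404 and 0.0201), where 1.36% of all genes did and were lower. The summed level was 0.454 to 20.6 FPM in KO and 1.79 to 111 FPM in WT. Plin1, which coats lipid droplets, held 0.709, 0.0413, 2.23, 1.34 and 0.0898 FPM in KO a6 to a10 and 8.85, 2.75, 0.175, 14.3 and 0.579 FPM in WT a16 to a20. Cfd (adipsin) held 1.77, 0.124, 9.92, 3.15 and 0.539 FPM in KO and 26.3, 11.2, 1.18, 29.1 and 3.14 FPM in WT, in the same order. Ucp1, the thermogenic protein of brown fat, held 0.0507, 0.0413, 0.186, 2.98 and 0.269 FPM in KO and 6.96, 2.71, 0, 44.5 and 0.290 FPM in WT. In each gene the highest values were those of WT a16 and a19, WT a20 lay among the KO kidneys, WT a18 among or below them, and the groups overlapped. Leptin (Lep) had the widest interval of the list, -5.48 to 1.02. Without a19 none of the 6 had an unadjusted p under 0.05 (the 3 gave 0.117, 0.108 and 0.217), and without a16 Plin1 and Cfd did not (0.0606 and 0.0946). With a8, a9 and a17 left out 5 of the 6 did, all lower in KO, where 183 of 16299 genes did and were lower. That fit drops a8 and a9, the KO kidneys with the highest summed levels (20.6 and 10.96 FPM, others 0.454 to 4.15 FPM). The WT kidney a17, dropped with them, held 22.9 FPM. The part of adhering fat in these values was not tested.

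None of the genes of podocytes, smooth muscle, pericytes or stroma had an unadjusted p under 0.05. Of 10 podocyte genes 5 were stable and the median was 0.08. Podxl and Clic5 gave 0.19 and -0.10, and without a18 the podocyte median was -0.14. Of 13 smooth muscle, pericyte and stromal genes 6 were stable, with a median of 0.11 (-0.01 without a18). Renin (Ren1), which the endothelium's neighbours in the juxtaglomerular apparatus make, gave 0.34 (48.7 ± 15.8 against 38.5 ± 11.5 FPM, interval -0.30 to 0.98), and the pericyte gene Rgs5 0.11 (interval -0.14 to 0.37). The smooth muscle actin gene Acta2 gave 0.12, and the matrix gene Postn, with the widest interval, -0.39 (-1.12 to 0.35). The 4 haemoglobin genes tested lay between 0.03 and 0.12, and their median of 0.05 became 0.39 without a18, -0.05 without a16 and -0.10 without a17.

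The genes with the smallest p among all 15943 were mostly low in abundance. Higher in KO were Lmo1 (a transcription cofactor, 2.08 ± 0.513 against 1.22 ± 0.259 FPM, log2 fold change 0.76, unadjusted p = 9.64e-04), Dll4, Ntf3 (neurotrophin 3, 0.74), Ankrd35 (1.14) and Serpinc1 (antithrombin, 0.58). Lower in KO were 6030443J06Rik (0.301 ± 0.121 against 0.734 ± 0.126 FPM, -1.29, unadjusted p = 3.86e-04, the smallest of all), Slc36a2 (-3.66), 4930467E23Rik (-1.28), A930029G22Rik (-1.51) and Pla2g12b (-1.25). Lmo1, 6030443J06Rik, 4930467E23Rik and Pla2g12b were without overlap between groups, as were 0.464% of all genes, and these 10 genes were chosen for their small p. Slc36a2, the gene of an amino acid transporter, was highest in WT a16 (3.29 FPM) and a19 (5.21 FPM), the kidneys with the most adipocyte RNA, and at most 0.504 FPM in KO.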

How the data were processed

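RNA of kidney tissue was enriched with oligo(dT) and sequenced as paired-end reads, and the authors deposited 1 table of raw counts per gene (unnormalised, whole numbers). The submitters' processing notes name HISAT2 2.1.0, featureCounts and mm10, whereas the methods of the study name TopHat2 for mapping; strand setting and treatment of multiply mapped reads were not given in the sources used here. Symbols were matched by identifier to GENCODE M21 for 55141 of 55382 genes. Every count on chromosomes 9, MT, X and Y and on the end of chromosome 8 was 0 (7729 genes of all kinds, among them 2636 of 21856 protein-coding genes), and genes there were not analysed.

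Groups came from the labels. All 20 kidney libraries were fitted in 1 model with 4 groups, a1 and a12 counted as 2 samples, in edgeR 4.0.16 (R 4.3.3; filterByExpr, TMM, robust quasi-likelihood F-test, Benjamini-Hochberg over all genes tested), and KO was contrasted with WT under SD. Wald standard errors gave 95% intervals, and a noncentral t distribution gave the change found with 80% power. FPM are counts per 1e+06 counts of the TMM-scaled library. Total counts of 19811155 to 31369285 per SD library limit the precision of low genes. The common biological coefficient of variation was 22.31%. Alternatives were DESeq2 1.42.0, other scalings, filters, tests and subsets of libraries, and a clock score (Arntl and Npas2 against Dbp and Nr1d1) as covariate. The steps were checked on simulated counts.

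A few list members are counted in their lists but not reported here by name. Members and gene lists were chosen with earlier results of these data known. The genes named are Egfr and all genes of the EGFR lists, all general endothelial genes and, for other lists, the 2 highest per length, any with unadjusted p under 0.05 and the narrowest and widest interval, plus the 5 genes each way with the smallest p. A few further list members were named after their values were seen, as genes well known in their cell type.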

Additional observations from a re-analysis of the deposited data

Results flagged for a closer look

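Levels of the targeted gene, of the members with an unadjusted p under 0.05, of every summed list and of the total count were searched for a single kidney far from the other 4 of its group, meaning that the gap to its nearest neighbour exceeded 0.71 of the group's range. Of 78 groups tested 11 held such a kidney. Among independent groups of normally distributed values about 1 in 20 would. The levels here were on a linear scale, the same kidneys recur across lists, and most single genes were chosen for a small p. Whether 11 exceeds chance was not tested.

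WT a17 accounts for 5 of the 11 groups. It was highest in its group for the summed immediate-early genes (2194 FPM, others 124 to 168), the inflammation and chemokine genes (198.6 FPM, others 31.5 to 36.1), the neutrophil genes (14.3 FPM, others 1.26 to 3.31), the EGFR feedback genes (1712 FPM, others 537 to 760) and the distal convoluted tubule genes (1794 FPM, others 1341 to 1438). In KO the same immediate-early genes were high in the pair a8 and a9, so that no single kidney stood apart there.

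Ucp1 set apart WT a19, at 44.5 FPM with the others at 6.96 FPM or less, and KO a9, at 2.98 FPM with the others at 0.269 FPM or less. The adrenal genes, of which 1 of 4 was tested, were lowest in WT a20 (3.39 FPM, others 4.76 to 4.98). The dendritic cell and MHC class II genes were lowest in KO a7 (411.6 FPM, others 629 to 712), and the distal convoluted tubule genes were lowest in KO a9 (1227 FPM, others 1495 to 1581). WT a16 was the most deeply sequenced kidney, with 31369285 counts against 23532144 to 25669396 in the other 4 WT kidneys.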

How the results depend on the processing

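The count of 0 called genes held under every alternative run, and the Egfr estimate was negative in all of them (-0.12 to -0.03 when each SD kidney was left out in turn). Tgfa, Dll4, Cd68, Plin1, Cfd, Ucp1 and the genes of smallest p kept their sign. The median of the tubular genes became -0.01 without a19 and that of the podocyte genes -0.14 without a18. The number of genes at an unadjusted p under 0.05 went from 426 to 1000 with no filter on low counts and to 810 with the endothelial score as covariate; leaving out 1 kidney gave 290 to 923, the 2 highest being 923 without WT a17 and 811 without WT a18. The stable endothelial genes, 20 of 46, became 11 when the spread came from the 10 SD kidneys alone, 12 when the clock score was added to that fit, 6 without a8, a9 and a17 (also 6 among SD kidneys alone), 37 with the endothelial score as covariate and 32 with a 90% interval, and 9 (without a20) to 34 (without a18) with 1 kidney left out; without a6, a17 or a19 there were 12. The stable immune genes, 7 of 51, became 4 with the 10 SD kidneys alone, 3 among SD kidneys without a8, a9 and a17, 18 with the endothelial score and 11 with a 90% interval, and 4 to 9 with 1 kidney left out (4 without a17, a19 or a20). The stable tubular genes ran from 43 to 52 and all stable genes from 9649 to 10055 with 1 kidney left out. The median detectable change of 2.22-fold became 3.86-fold with no filter and 4.14-fold among SD kidneys without a8, a9 and a17, and 2.23-fold to 2.42-fold with 1 kidney left out. The calls for diet ran from 821 to 1103 with 1 SD kidney left out (no HFD kidney was left out singly), and were 725 with no filter, 1237 with the clock score and 1433 by DESeq2. Without a1 and a12, 16 endothelial and 8 immune genes were stable. The fits with the endothelial score and with the clock score among SD kidneys were chosen after seeing the data. So was the fit with SD kidneys without a8, a9 and a17. The cause of these shifts was not tested. The endothelial score is built from 19 of the 46 endothelial genes. The count of 37 stable endothelial genes is therefore partly fixed by construction and does not measure their stability. No paired analysis was possible because the groups share no replicate numbers. Depth limits genes under 1 FPM most.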

Other observations

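The circadian genes varied between kidneys of one genotype more than between genotypes. The clock score was the mean log2 level of Arntl and Npas2 minus that of Dbp and Nr1d1, not a mean over the list. It ran from -5.66 to -0.55 in KO and from -6.20 to 0.04 in WT. The log2 fold change of Arntl (Bmal1), the core activator of the clock, was 0.10 with an interval of -1.63 to 1.82. Dbp, an output gene of the clock, held 73.0 ± 70.7 FPM in KO and 70.2 ± 66.4 FPM in WT. Of 15 clock genes 4 were stable, and Tef and Hlf, also output genes, gave -0.11 and -0.17. With the score as covariate 0 genes were called between genotypes.

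Genes that differ between the sexes in mouse kidney had 0 calls between genotypes, and 0 of 7 had an unadjusted p under 0.05. The 4 male-biased genes summed to 5197 to 5645 FPM in KO and 5203 to 6743 FPM in WT, and the 3 female-biased genes to 14.998 to 82.0 and 25.4 to 54.1 FPM. The male-biased Cyp4b1 was bounded at 1.28-fold, Acsm3 and Cyp7b1 gave -0.14 and 0.14, and the female-biased Cyp4a14, Slc7a12 and Prlr gave -0.02, 0.56 and 0.41.

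All 12 immediate-early genes had higher estimates in KO, with 0 at an unadjusted p under 0.05 and a median log2 fold change of 0.95. Egr1, Junb and Dusp1, among the first genes that a stimulus switches on, gave 0.93, 1.05 and 0.63, with the interval of Egr1 running from -2.15 to 4.01. Leaving out WT a17 alone leaves the kidneys high in these genes in KO only. In that fit the median was 3.89 and all 12 had an unadjusted p under 0.05, all higher in KO (against 3.86% of all genes). Without a8, a9 and a17 the median over the 11 tested was 0.17, with 7 higher and 4 lower. Star, the 1 adrenal gene tested, was stable at 4.73 ± 0.425 and 4.32 ± 0.643 FPM.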
